A study of Homo sapiens with 15 samples.

Results

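The genes of cholesterol and fatty acid synthesis were followed in PSN-1, an established human cell line of pancreatic ductal adenocarcinoma (PDAC). The 35 members were taken by gene symbol from the rows of both count tables, which list 26485 symbols each. Of these, 21 form the sterol branch and 14 the fatty acid branch. RNA-seq counts of 15 libraries in 5 groups of 3 were used, all from cells treated for 72 hours. In one experiment the cells received siRNA against MondoA (siMondoA; gene symbol MLXIP), siRNA against MLX (siMLX) or a control siRNA (siControl). In the other they received SBI-477, which the labels call an inhibitor of MondoA, or the vehicle DMSO; its dose is not in the labels. All libraries come from this single line, and no label states that replicates came from separate cultures, so p-values measure the spread of libraries, which can be technical. The siRNA experiment has no rescue, so loss of the targeted protein and other actions of the siRNA cannot be told apart.

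Cells make cholesterol from acetyl-CoA through mevalonate, squalene and lanosterol, and fatty acids from acetyl-CoA through malonyl-CoA. SREBF1 and SREBF2 encode the SREBP transcription factors, which are held in the endoplasmic reticulum with SCAP by INSIG proteins while sterols are plentiful. When sterols fall, SREBPs are cut in the Golgi by the proteases MBTPS1 and MBTPS2, enter the nucleus and bind sterol regulatory elements, often beside CCAAT boxes bound by NF-Y. MondoA and its relative ChREBP (MLXIPL) sense sugar phosphates and bind DNA with MLX, and ChREBP is known for driving fatty acid synthesis genes in liver. Fatty acid synthase is known to be high in pancreatic carcinoma.

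The promoters of 4 members are shown. INSIG1 and MSMO1 are sterol members with values given in the siRNA comparisons. SREBF2 and MID1IP1 are the members found to hold the full sterol regulatory element, among the 31 whose promoters could be searched. Each promoter shown is the run of 250 bases that ends just before the start of transcription in RefSeq on GRCh38.p14. The gene starts from GENCODE v29 given below lie inside these windows. Distances to the start therefore hold for the RefSeq start only. It is written 5′ to 3′ on the plus strand, which is the strand of all 4 genes. Capitals mark CCAAT and the sterol regulatory element (ATCAC, any base, CCAC), each searched on both strands, so that ATTGG is CCAAT on the minus strand and GTGGGGTGAT the element on the minus strand.
INSIG1, chr7:155297628-155297877: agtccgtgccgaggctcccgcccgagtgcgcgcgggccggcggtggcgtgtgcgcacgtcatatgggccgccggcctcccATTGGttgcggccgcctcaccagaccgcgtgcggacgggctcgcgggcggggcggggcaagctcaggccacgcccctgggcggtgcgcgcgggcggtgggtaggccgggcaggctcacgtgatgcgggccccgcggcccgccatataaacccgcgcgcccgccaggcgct
MSMO1, chr4:165327419-165327668: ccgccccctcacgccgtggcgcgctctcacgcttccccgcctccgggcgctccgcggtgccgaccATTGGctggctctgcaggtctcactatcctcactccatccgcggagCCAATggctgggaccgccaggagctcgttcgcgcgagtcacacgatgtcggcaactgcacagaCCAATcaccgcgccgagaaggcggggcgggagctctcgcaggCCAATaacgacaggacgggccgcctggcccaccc
SREBF2, chr22:41832855-41833104: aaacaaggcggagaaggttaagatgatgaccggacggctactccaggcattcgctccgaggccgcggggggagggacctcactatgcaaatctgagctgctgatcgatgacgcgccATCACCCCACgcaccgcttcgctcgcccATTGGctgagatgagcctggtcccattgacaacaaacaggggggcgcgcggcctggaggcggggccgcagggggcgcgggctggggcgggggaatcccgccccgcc
MID1IP1, chrX:38801209-38801458: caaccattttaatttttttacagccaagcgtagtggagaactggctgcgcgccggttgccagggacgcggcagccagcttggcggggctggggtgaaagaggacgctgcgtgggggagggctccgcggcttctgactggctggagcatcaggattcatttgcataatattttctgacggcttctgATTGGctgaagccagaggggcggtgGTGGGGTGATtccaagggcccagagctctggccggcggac
MSMO1 held 4 CCAAT boxes in this window, at 185, 139, 76 and 34 bases before the start, and INSIG1 held 1 at 170 bases before it. In SREBF2 the element began 134 bases before the start and a CCAAT box 106 bases before it. In MID1IP1 the element began 40 bases before the start and a CCAAT box 65 bases before it.

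RefSeq promoters were matched for 31 of the 35 members, 8 of them with several starts. FASN, FDFT1, ACAT2 and SQLE had no promoter to search. A member counted as found if any of its starts matched, whereas the shares over all promoters count each start singly. The 2 units are therefore unlike, and members with several starts had more chances of a match. CCAAT was found for 16 of 18 sterol members and 8 of 13 fatty acid members, against 32.0% of 35116 promoters of the same length. The sterol regulatory element was found for 2 of 31 members, against 0.125% of all promoters. The E-box CACGTG was found for INSIG1, SC5D and ELOVL5, 3 of 31 members, against 6.34% of all promoters. The GC box GGGCGG was found for 28 of 31 members, against 42.6% of all promoters. None of the 4 motifs contains another, both strands were searched for each, and a match describes letters in the window and not binding.

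Library totals ran from 11227343 to 14731691 counts in the siRNA experiment and from 23315440 to 30480362 counts in the drug experiment. The targeted transcripts checked the labels: MLXIP was at 22.6, 23.4 and 15.7 CPM in siMondoA, against 83.6, 65.8 and 88.7 CPM in siControl, and MLX was at 11.9, 7.15 and 7.70 CPM in siMLX, against 53.4, 58.8 and 53.0 CPM in siControl. All 8 epithelial PDAC markers exceeded 1 CPM in every library (summed level 1654 to 3005 CPM), as did 3 of 6 leukocyte markers (49.3 to 100.2 CPM), 4 of 6 fibroblast markers (100.002 to 827 CPM) and 2 of 6 endothelial markers (21.2 to 40.4 CPM). In the drug experiment the library labelled DMSO 2 correlated best with SBI-477 1 (r = 0.987 over genes) and the library labelled SBI-477 2 best with DMSO 1 (r = 0.993). Fold changes in the authors' deposited table were returned from the counts with these 2 libraries exchanged (median absolute difference 9.34e-08 over 13086 genes) and not with the labels as given (0.196). Libraries are named by their labels here, and each drug result is given with all 6 libraries and without these 2.

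Levels per length of exon in siControl spanned a wide range among the members. SCD, which puts the double bond into stearate and palmitate, was the highest at 131 ± 4.56 CPM per kb (SD, n = 3), above ACLY, which makes cytosolic acetyl-CoA, at 68.9 ± 5.20 CPM per kb. CYP51A1, FASN and FDPS followed at 48.3 ± 2.52, 44.3 ± 10.3 and 41.7 ± 1.27 CPM per kb, and FASN did not differ from either neighbour beyond its spread. HMGCS1, INSIG1 and MID1IP1 lay in the middle at 23.3 ± 0.607, 22.3 ± 0.892 and 21.8 ± 0.380 CPM per kb. SREBF2 stood at 19.7 ± 1.40 CPM per kb, above SREBF1 at 13.3 ± 0.643 CPM per kb. TM7SF2, HSD17B7 and FADS2 were the lowest of the detected members at 2.64 ± 0.696, 1.88 ± 0.143 and 0.444 ± 0.0270 CPM per kb. THRSP, the relative of MID1IP1 known from liver and fat, had 0 counts in all 15 libraries, which allows up to 0.267 CPM in a siRNA library and 0.129 CPM in a drug library. The other 34 members passed the filter on low counts in every comparison.

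**Figure D1:**
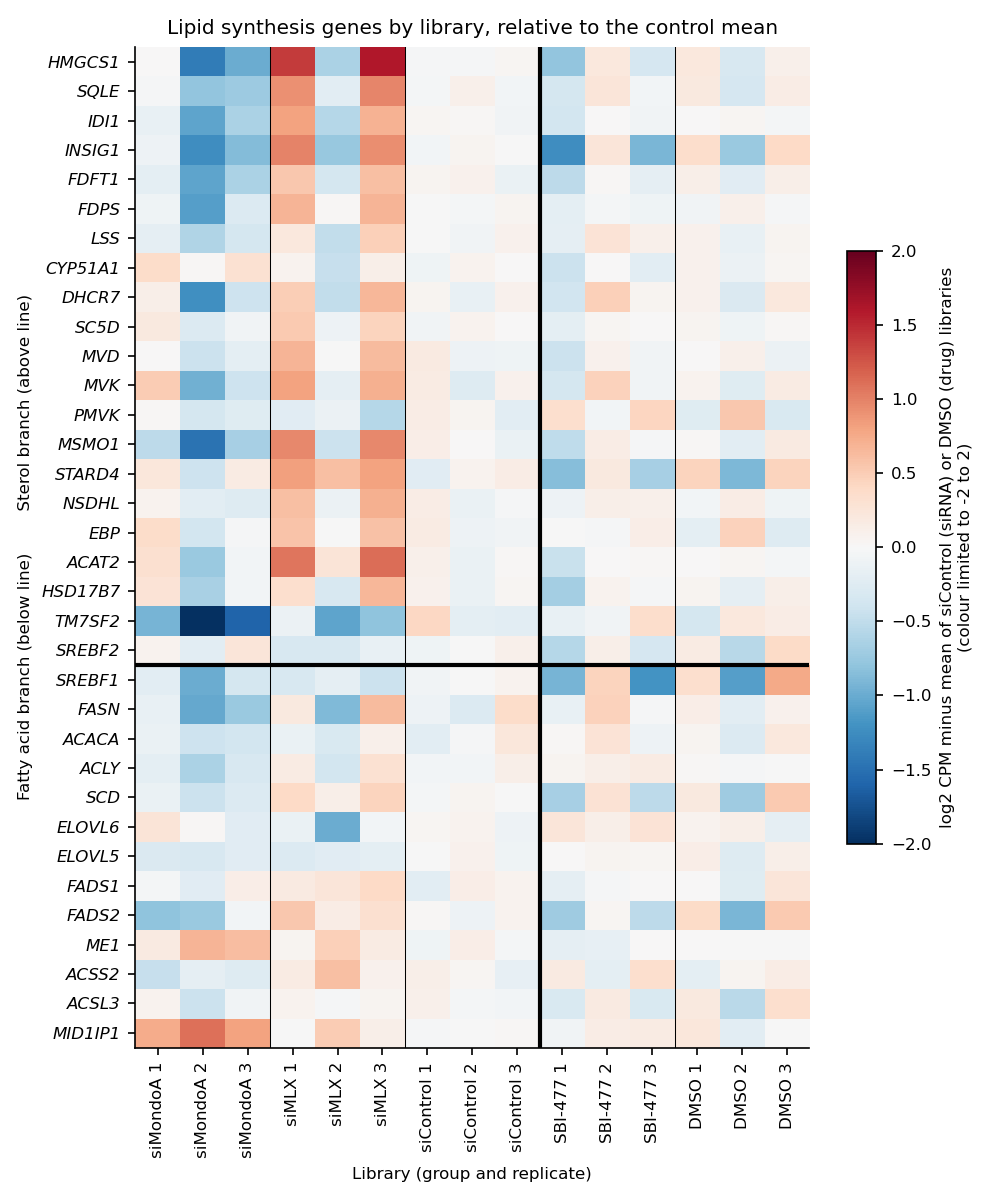
Level of each detected member in each library, as log2 CPM minus the mean of siControl (siRNA libraries, left of the thick line) or of DMSO (drug libraries, right of it), with the sterol branch above the horizontal line. Most sterol genes are low in siMondoA 2 and 3 and siMLX 2 and high in siMLX 1 and 3, and the library labelled DMSO 2 resembles SBI-477 1 and 3 at INSIG1, STARD4, SREBF1, SCD and FADS2.

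Comparing siMondoA with siControl asks which members change with siRNA against MondoA. MID1IP1 and ME1 rose and TM7SF2 and ELOVL5 fell by edgeR's quasi-likelihood test (Benjamini-Hochberg adjusted p under 0.05 over all genes). These are 4 of 34 members, where the test called 27.2% of the 13001 genes (14.2% up and 12.9% down). Most members nonetheless lay below zero: the median log2 fold change was -0.20 in the sterol branch, with 17 of 21 negative and 1 called, and -0.28 in the fatty acid branch, with 10 of 13 negative and 3 called, beside 0.00 over all genes. CPM is a share of a library's RNA, so fewer cells with a transcript and less of it per cell cannot be told apart. In 7 sterol and 5 fatty acid members the siMondoA libraries lay wholly below siControl, and in 2 fatty acid members wholly above, where 22.8% of all genes lay wholly below and 24.4% wholly above.

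MID1IP1 (X, 38801432 to 38806537, on the plus strand; all gene positions are from GENCODE v29, build GRCh38) encodes a protein that promotes polymerisation of acetyl-CoA carboxylase, the first committed enzyme of fatty acid synthesis. Its level was 138.7, 177 and 143.7 CPM in siMondoA libraries 1, 2 and 3, against 81.2, 82.3 and 84.1 CPM in siControl. The groups did not overlap (log2 fold change 0.89 ± 0.15 SE, edgeR adjusted p = 0.00269), and this call held under all 12 other settings run. ME1 (chromosome 6, 83210389 to 83431071, minus strand), the cytosolic malic enzyme that supplies NADPH, was at 37.7, 53.7 and 51.3 CPM in siMondoA, against 31.3, 36.5 and 32.3 CPM in siControl. Each siMondoA library lay above each siControl library (0.51 ± 0.16, edgeR adjusted p = 0.0405). That call was lost without any 1 of the siControl libraries, siMondoA 2 or siMondoA 3 (edgeR adjusted p 0.0722 to 0.127).

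TM7SF2 (chromosome 11, 65111845 to 65116384, plus strand) encodes a sterol reductase that acts after lanosterol demethylation. It was at 4.53, 1.75 and 2.80 CPM in siMondoA, against 11.7, 7.68 and 7.57 CPM in siControl. All 3 siMondoA libraries were below all 3 siControl libraries (-1.56 ± 0.36, edgeR adjusted p = 0.0123), and the call held under all 12 other settings, with adjusted p up to 0.0496. ELOVL5 (chromosome 6, 53267398 to 53349179, minus strand), an elongase of polyunsaturated fatty acids, was at 117.9, 115 and 122.8 CPM in siMondoA, against 144, 153 and 136 CPM in siControl. The groups were apart, but the change was small (-0.28 ± 0.09, edgeR adjusted p = 0.0417) and the call held under only 4 of 12 other settings. It was lost without any single siMondoA or siControl library (edgeR adjusted p 0.0623 to 0.141). The call was also lost with no filter on low counts and with the 2 compared groups alone.

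At the other sterol enzymes the siMondoA libraries differed among themselves. HMGCS1 (chromosome 5, 43289395 to 43313512, minus strand), which makes the HMG-CoA that enters the mevalonate pathway, was at 109.5, 41.5 and 54.7 CPM in siMondoA, against 107.8, 107.8 and 113 CPM in siControl. SQLE (chromosome 8, 124998497 to 125022283, plus strand), the squalene epoxidase, was at 128, 75.5 and 78.9 CPM in siMondoA, against 128, 139.9 and 126 CPM in siControl. Library siMondoA 1 lay inside the siControl range for both genes and libraries 2 and 3 lay below it. Neither difference passed the test with all libraries (-0.67 ± 0.48 and -0.48 ± 0.29; edgeR adjusted p 0.318 and 0.234) or without siMondoA 1 (-1.18 ± 0.49 and -0.76 ± 0.28; edgeR adjusted p 0.0911 and 0.0661). MSMO1 (chromosome 4, 165327623 to 165343160, plus strand), the methylsterol monooxygenase that removes methyl groups from lanosterol derivatives, was at 57.5, 29.6 and 52.2 CPM in siMondoA, against 90.5, 82.6 and 75.2 CPM in siControl. INSIG1 (chromosome 7, 155297776 to 155310235, plus strand), the sterol-sensing brake on SREBP that is itself an SREBP target, was at 75.9, 34.5 and 44.4 CPM in siMondoA, against 78.5, 85.0 and 80.8 CPM in siControl. For both, each siMondoA library was below each siControl library without passing the test (-0.83 ± 0.34 and -0.66 ± 0.40; edgeR adjusted p 0.0885 and 0.236).

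The branch median put the siMondoA libraries in the order seen for HMGCS1. The median sterol member stood at 0.02 in siMondoA 1, -0.74 in siMondoA 2 and -0.28 in siMondoA 3 on the log2 scale relative to the siControl mean, with 8, 20 and 18 of 21 members below it. The integrated stress response (ISR) is the gene program that ATF4 drives. The median of 20 of its genes stood at 1.52, 2.77 and 2.21 in the same libraries. In siMondoA 17 of the 20 rose, where 14.2% of all genes did. Whether the stress response has a part in the lower sterol levels was not tested. Without siMondoA 1 the sterol count was 2 of 21, with FDFT1 (-0.83 ± 0.26, edgeR adjusted p = 0.036) beside TM7SF2, where 29.4% of all genes were called (15.5% up and 13.9% down). Without siMondoA 2 it was TM7SF2 alone (-1.28 ± 0.35, edgeR adjusted p = 0.0351), where 17.3% were (8.67% up and 8.58% down).

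The siMLX libraries share the estimate of spread in this fit, and siMLX 2 stood apart from siMLX 1 and 3. With siMLX 2 left out of the fit, 6 sterol members had fallen: IDI1, INSIG1, FDFT1, LSS, MSMO1 and TM7SF2, where 32.9% of all genes were called (17.4% up and 15.5% down). The folds were close to those above, for example -0.83 ± 0.20 for MSMO1 and -0.66 ± 0.22 for INSIG1 (edgeR adjusted p 0.010 and 0.0442). In the fatty acid branch SREBF1 and ACLY then joined ELOVL5 among the members called down (-0.48 ± 0.17 and -0.38 ± 0.13; edgeR adjusted p 0.048 and 0.0415).

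The transcription factor genes and the core enzymes of fatty acid synthesis gave the following values. SREBF1 (chromosome 17, 17810399 to 17837002, minus strand) was at 92.6, 54.0 and 83.9 CPM in siMondoA, against 102.4, 106.5 and 113 CPM in siControl. The groups did not overlap, and the difference missed the threshold (-0.48 ± 0.17, edgeR adjusted p = 0.0606). SREBF2 (chromosome 22, 41833079 to 41907308, plus strand) overlapped fully, at 156, 128 and 176 CPM in siMondoA, against 139.6, 147 and 161 CPM in siControl. FASN (chromosome 17, 82078333 to 82098332, minus strand), the fatty acid synthase, was at 367, 201 and 243 CPM in siMondoA, against 381, 339 and 524 CPM in siControl (-0.62 ± 0.34, edgeR adjusted p = 0.198). ACACA (chromosome 17, 37084988 to 37406818, minus strand), an acetyl-CoA carboxylase, was at 122.7, 101 and 105 CPM in siMondoA, against 117, 133 and 158 CPM in siControl (-0.32 ± 0.15, 0.127). FASN and ACACA in siMondoA 1 lay inside the siControl range, and libraries 2 and 3 lay below it. SCD (chromosome 10, 100347124 to 100364834, plus strand) stood at 645, 522 and 581 CPM in siMondoA, against 683, 731 and 700.0 CPM in siControl, apart but not past the threshold (-0.28 ± 0.12, edgeR adjusted p = 0.112).

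The sterol members for which no values per library are printed had folds between -0.56 ± 0.32 for IDI1, the isopentenyl isomerase, and 0.24 ± 0.16 for CYP51A1, the lanosterol demethylase, in siMondoA. Between them lay DHCR7, LSS, MVD, PMVK, MVK, NSDHL, HSD17B7, SC5D and EBP, enzymes of the mevalonate and later sterol steps, and none passed. FDFT1, FDPS, ACAT2 and STARD4, whose library values follow, were at -0.59 ± 0.26, -0.43 ± 0.24, -0.10 ± 0.27 and 0.00 ± 0.18 in siMondoA, and none passed either. Of the fatty acid members, ACLY was at -0.38 ± 0.17, ACSL3 at -0.14 ± 0.13, the desaturase gene FADS1 at -0.04 ± 0.13 and the elongase gene ELOVL6 at 0.03 ± 0.22, and none passed in edgeR's test.

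**Figure D2:**
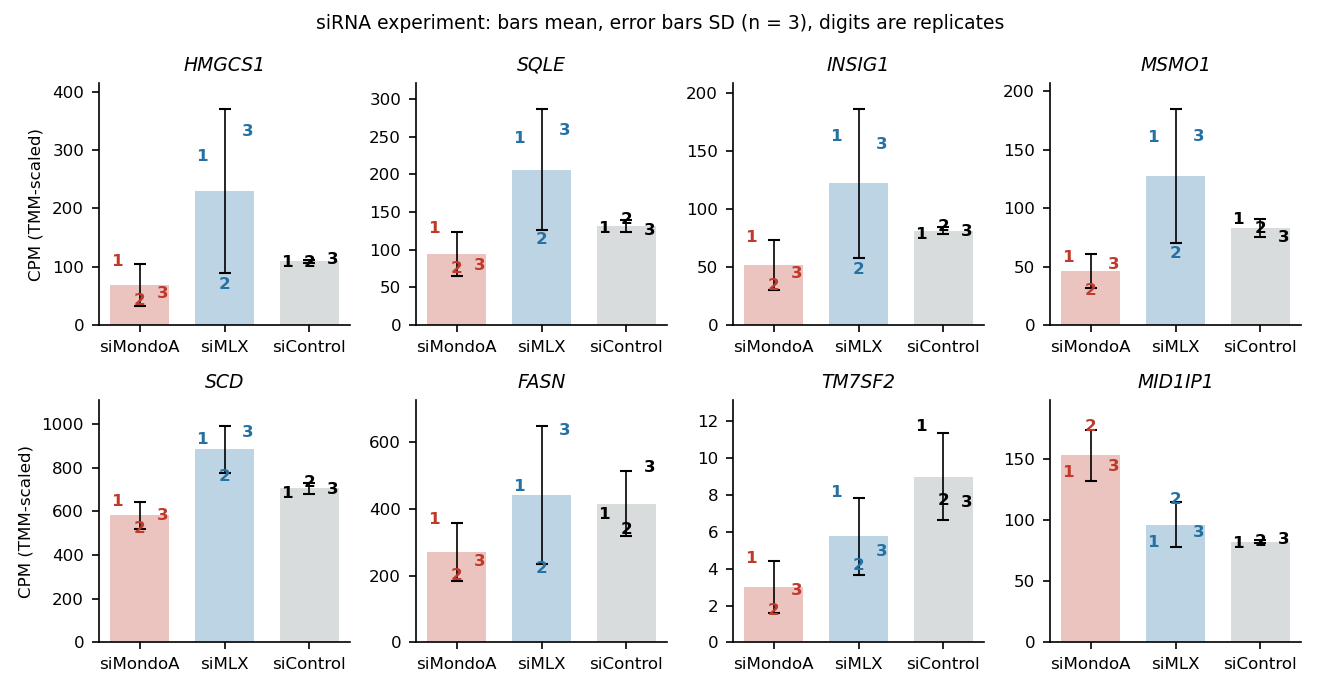
TMM-scaled CPM of 8 members in the siRNA libraries; bars are group means, error bars the SD over 3 libraries, and digits the replicate numbers. For HMGCS1, SQLE, INSIG1 and MSMO1, siMLX 1 and 3 lie above siControl and siMLX 2 below it, while MID1IP1 is higher in every siMondoA library than in any siControl library.

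The genes that sense sterols and process SREBP were counted beside the members. Of 13 such genes 1 rose and 5 fell in siMondoA (median log2 fold change -0.26), where 14.2% of all genes rose and 12.9% fell. NPC1, which moves cholesterol out of lysosomes, rose to 196 ± 53.0 CPM in siMondoA, against 69.0 ± 4.89 CPM in siControl (SD, n = 3 each; 1.51 ± 0.27, edgeR adjusted p = 0.00425), while its partner NPC2 fell to 42.2 ± 2.24 CPM, against 84.7 ± 21.4 CPM (-1.003 ± 0.210, 0.00819). The ubiquitin ligases RNF139 and RNF145, which act on the sterol-sensing machinery, fell by 0.38 ± 0.10 and 0.36 ± 0.09 on the log2 scale (edgeR adjusted p 0.0192 and 0.0198). Of 13 other sterol and isoprenoid enzymes none rose and 2 fell, ACAT1, the mitochondrial acetyl-CoA acetyltransferase, by 0.87 ± 0.12 and C14orf1, a sterol enzyme scaffold, by 0.83 ± 0.24 (edgeR adjusted p 0.00161 and 0.0298).

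The comparison of siMLX with siControl puts the question for MLX, the partner of MondoA. The sterol branch had a median log2 fold change of 0.43 with 17 of 21 members positive, beside 0.02 over all genes, but 18 of the 21 in siMLX 2 lay below the siControl mean. STARD4 rose and was the 1 member of 34 called, where the test called 8.41% of 13001 genes (3.72% up and 4.69% down). The fatty acid branch had a median of 0.08, with 9 of 13 positive and none called; SCD and ELOVL5 had an unadjusted p under 0.05 and DESeq2 also called none. With the replicate number as a block, which the labels share and along which siControl and siMLX deviated together, 3 sterol members were called, where 14% of all genes were (6.52% up and 7.44% down). They were STARD4 (0.73 ± 0.16, edgeR adjusted p = 0.0176), ACAT2 (0.81 ± 0.16, 0.0129) and, lower in siMLX, TM7SF2 (-0.67 ± 0.19, 0.0438).

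STARD4 (chromosome 5, 111496033 to 111512590, minus strand) encodes a soluble carrier of cholesterol between membranes. It was at 58.4, 50.2 and 58.1 CPM in siMLX libraries 1, 2 and 3, against 28.4, 34.7 and 36.7 CPM in siControl. The groups did not overlap (0.74 ± 0.17, edgeR adjusted p = 0.0304), where 16.5% of all genes lay wholly above siControl. The call was lost without siMLX 1, siMLX 3 or any 1 of the siControl libraries, with adjusted p up to 0.124, while the fold stayed between 0.64 and 0.82 under all settings run. ACAT2 (chromosome 6, 159760328 to 159779055, plus strand), the cytosolic acetyl-CoA acetyltransferase at the head of the mevalonate pathway, was at 74.5, 42.2 and 76.2 CPM in siMLX, against 37.8, 32.3 and 35.9 CPM in siControl. It was higher in each siMLX library without passing (0.86 ± 0.27, edgeR adjusted p = 0.0746). ACAT2 shares 26.5% of its exon bases with SOD2 and 33.9% with SOD2-OT1 on the other strand, and whether the kit marked strand is not stated in the labels, so its level is uncertain.

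The higher sterol levels stood in siMLX 1 and 3 and not in siMLX 2. HMGCS1 was at 288, 70.3 and 332 CPM in siMLX, against 107.8, 107.8 and 113 CPM in siControl. SQLE was at 248, 113 and 257 CPM in siMLX, against 128, 139.9 and 126 CPM in siControl. INSIG1 was at 163, 48.1 and 155 CPM in siMLX, against 78.5, 85.0 and 80.8 CPM in siControl. For all 3 genes siMLX 1 and 3 stood above each siControl library and siMLX 2 below each. MSMO1 had the same pattern, at 160.2, 61.5 and 161 CPM in siMLX, against 90.5, 82.6 and 75.2 CPM in siControl. The median sterol member stood at 0.60, -0.31 and 0.67 in siMLX 1, 2 and 3 relative to the siControl mean, and the median of the 20 ISR genes at 0.23, 2.46 and 0.29. The 1 siMLX library with high stress genes was the 1 with low sterol genes, and what sets siMLX 2 apart was not tested.

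Without siMLX 2, 8 of 21 sterol members had risen, where 6.27% of 13182 genes were called (2.59% up and 3.68% down). HMGCS1 rose by 1.501 ± 0.30, ACAT2 by 1.09 ± 0.23, INSIG1 by 0.97 ± 0.24, MSMO1 by 0.96 ± 0.22 and SQLE by 0.94 ± 0.19 on the log2 scale (edgeR adjusted p 0.0175, 0.0223, 0.0413, 0.0282 and 0.020). STARD4, the mevalonate decarboxylase MVD and the sterol dehydrogenase NSDHL rose as well, by 0.81 ± 0.19, 0.65 ± 0.16 and 0.65 ± 0.14 (edgeR adjusted p 0.0303, 0.0401 and 0.0249). With the replicate block in addition, INSIG1 and STARD4 dropped out and 6 remained, where 7.53% of all genes were called (3.04% up and 4.48% down). In the fatty acid branch none of 13 passed without siMLX 2; the median was 0.11 there, beside 0.65 in the sterol branch and 0.01 over all genes.

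Of the sterol members for which no values per library are printed, in siMLX the folds ran from -0.30 ± 0.16 for PMVK to 0.50 ± 0.35 for the mevalonate kinase gene MVK, with CYP51A1 at -0.07 ± 0.16 and the other 8 positive. In the fatty acid branch ELOVL6 was at -0.34 ± 0.22 and FADS1 at 0.27 ± 0.13. The median fatty acid member stood at 0.07, -0.03 and 0.12 in siMLX 1, 2 and 3 relative to the siControl mean.

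SREBF1 and SREBF2 lay lower in siMLX, unlike most sterol enzymes. SREBF2 was at 118.9, 119.7 and 134 CPM in siMLX, against 139.6, 147 and 161 CPM in siControl, and SREBF1 at 85.5, 94.1 and 79.7 CPM, against 102.4, 106.5 and 113 CPM. Both lay wholly below siControl, where 16.9% of all genes did, without passing the test (-0.26 ± 0.13 and -0.31 ± 0.17; edgeR adjusted p 0.220 and 0.284). FASN was at 465, 221 and 632 CPM in siMLX, against 381, 339 and 524 CPM in siControl, with siMLX 1 inside the siControl range, siMLX 3 above it and siMLX 2 below it. Among 13 genes of sterol sensing and SREBP processing none rose and 3 fell, where 3.72% of all genes rose and 4.69% fell. The 3 were ERLIN1 (-0.89 ± 0.12, edgeR adjusted p = 0.00258), a membrane protein that binds SCAP and INSIG, NPC2 (-1.32 ± 0.21, 0.00647), and the SREBP protease gene MBTPS1 (-0.53 ± 0.10, 0.0138). MBTPS1 was at 81.4 ± 1.13 CPM in siMLX and 117 ± 8.90 CPM in siControl (SD, n = 3 each). These 3 were also called without siMLX 2 and with the block, which added NPC1 as higher in siMLX (0.60 ± 0.17, edgeR adjusted p = 0.0471).

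**Figure D3:**
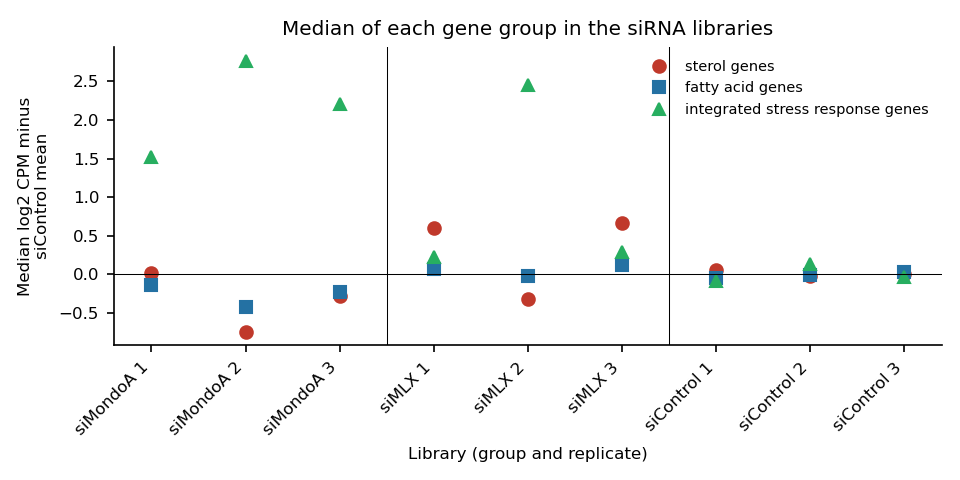
Median of 21 sterol members, 13 fatty acid members and 20 integrated stress response genes in each siRNA library, as log2 CPM minus the siControl mean. The siMLX 2 point for sterol genes is at -0.31 and for stress genes at 2.46, while siMLX 1 and 3 are at 0.60 and 0.67 for sterol genes and at 0.23 and 0.29 for stress genes.

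Set directly against each other, siMondoA and siMLX differed in members of both branches. Lower in siMondoA were 7 sterol members (HMGCS1, SQLE, FDFT1, FDPS, MSMO1, STARD4 and ACAT2) and 3 fatty acid members (SCD, FADS2 and ACSS2), and MID1IP1 was higher. These are 11 of 34 members, where the test called 12.9% of 13001 genes (6.66% up and 6.21% down). The median log2 fold change was -0.72 in the sterol branch, with 18 of 21 negative, and -0.20 in the fatty acid branch, beside 0.00 over all genes. In 3 sterol and 4 fatty acid members the siMondoA libraries lay wholly below siMLX, and in 1 fatty acid member wholly above. Of all genes 15.3% lay wholly below and 14.9% wholly above.

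HMGCS1 fell by 1.75 ± 0.49 and MSMO1 by 1.46 ± 0.34 in siMondoA relative to siMLX (edgeR adjusted p 0.0424 and 0.0204), with the values per library given above; for HMGCS1 the groups overlapped, since siMLX 2 lay below siMondoA 1. STARD4 was at 38.6, 24.6 and 36.9 CPM in siMondoA, against 58.4, 50.2 and 58.1 CPM in siMLX, with no overlap (-0.73 ± 0.18, edgeR adjusted p = 0.0225). ACAT2 was at 44.1, 21.0 and 33.9 CPM in siMondoA, against 74.5, 42.2 and 76.2 CPM in siMLX (-0.96 ± 0.27, edgeR adjusted p = 0.0423), and siMLX 2 lay below siMondoA 1. SQLE fell by 1.13 ± 0.29 (edgeR adjusted p = 0.0296). FDFT1 (chromosome 8, 11795573 to 11839309, plus strand), the squalene synthase, was at 117.8, 64.5 and 87.0 CPM in siMondoA, against 195, 105 and 205 CPM in siMLX (-0.91 ± 0.26, edgeR adjusted p = 0.0438), and siMLX 2 lay within the siMondoA range. FDPS (chromosome 1, 155308748 to 155320666, plus strand), the farnesyl diphosphate synthase, was at 146, 71.9 and 127 CPM in siMondoA, against 249, 157 and 248 CPM in siMLX (-0.92 ± 0.24, edgeR adjusted p = 0.0334), with no overlap. FDPS has 8 pseudogenes by name in the annotation, and reads of 25 bases may not tell copies apart.

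The fatty acid members that differed between the knockdowns were these. SCD was at 645, 522 and 581 CPM in siMondoA, against 928, 762 and 959.8 CPM in siMLX (-0.60 ± 0.12, edgeR adjusted p = 0.0119). FADS2 (chromosome 11, 61792980 to 61867354, plus strand), a desaturase of polyunsaturated fatty acids, was at 2.74, 2.86 and 4.72 CPM in siMondoA, against 7.16, 5.46 and 6.17 CPM in siMLX (-0.86 ± 0.24, 0.0406). ACSS2 (chromosome 20, 34872146 to 34927962, plus strand), which makes acetyl-CoA from acetate, was at 40.6, 49.5 and 46.9 CPM in siMondoA, against 62.8, 84.6 and 59.7 CPM in siMLX (-0.60 ± 0.15, 0.0291). In all 3 the siMondoA libraries lay below the siMLX libraries, where 15.3% of all genes lay wholly below. MID1IP1 was at 138.7, 177 and 143.7 CPM in siMondoA, against 82.0, 117 and 89.8 CPM in siMLX, apart in the other direction (0.67 ± 0.14, 0.0154). Against siControl FADS2 was at -0.51 ± 0.24 in siMondoA and 0.35 ± 0.23 in siMLX. ACSS2 was at -0.30 ± 0.15 and 0.30 ± 0.15 there, and none of these folds passed edgeR's test. Among other settings, the calls of SCD, FADS2, ACSS2 and MID1IP1 between the knockdowns were lost without siMLX 1. Those of SCD, FADS2 and MID1IP1 were also lost without siMLX 3.

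The calls between the 2 knockdowns depended on the libraries and on the replicate block. With the block 14 sterol and 4 fatty acid members were lower in siMondoA and MID1IP1 higher, where 2606 of 13001 genes were called. Without siMLX 2, 14 sterol and 5 fatty acid members were lower in siMondoA and MID1IP1 higher, where 22.5% of 13182 genes were called (12.6% up and 9.91% down), with HMGCS1 at -2.18 ± 0.30 and MSMO1 at -1.79 ± 0.22 (edgeR adjusted p 0.00124 and 0.000706). Without siMLX 1, siMLX 3 or siMondoA 3 no sterol member was called, where 2.74%, 2.68% and 2.84% of all genes were called down. Without siMondoA 2 there was 1, where 3.79% were, and without siMondoA 1 there were 13, where 7.91% were. Across all settings the fold of HMGCS1 stayed between -2.26 and -1.38 and that of MSMO1 between -1.79 and -1.22.

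**Figure D4:**
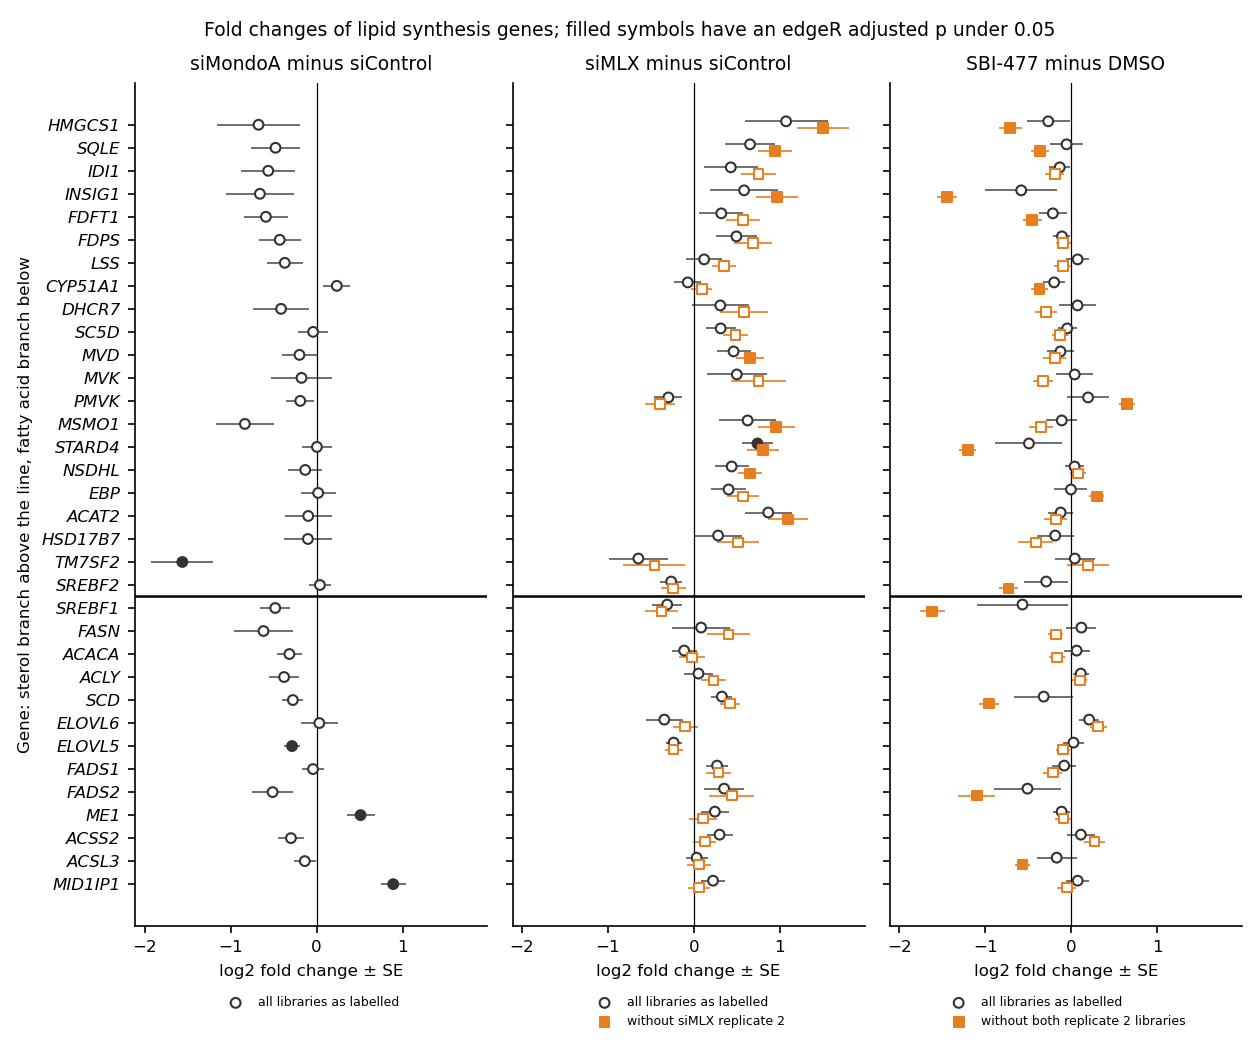
Log2 fold change of each detected member with its SE in siMondoA minus siControl, siMLX minus siControl and SBI-477 minus DMSO. Circles use all libraries as labelled and squares leave out siMLX 2 or both replicate 2 drug libraries; filled symbols have an edgeR adjusted p under 0.05. Most sterol members sit left of zero in siMondoA and right of it in siMLX.

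The comparison of SBI-477 with DMSO asks which members change with the compound. With the 6 libraries as labelled no gene of 14023 was called (0%), by edgeR or by DESeq2; 409 and 453 genes had an unadjusted p under 0.05 in the 2 tests, and no member did in edgeR. The median log2 fold change was -0.11 in the sterol branch and 0.03 in the fatty acid branch, beside -0.01 over all genes. ACLY was the 1 member whose libraries did not overlap, higher under SBI-477, where 4.76% of all genes lay wholly above DMSO and 4.5% wholly below.

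The overlap is seen in the values per library. INSIG1 was at 36.5, 102.3 and 46.2 CPM in the libraries labelled SBI-477 1, 2 and 3, against 110.3, 51.6 and 114.7 CPM in those labelled DMSO 1, 2 and 3. STARD4 was at 24.5, 50.3 and 27.8 CPM under SBI-477, against 60.3, 23.6 and 60.1 CPM under DMSO. SREBF1 was at 29.04, 74.8 and 24.0 CPM under SBI-477, against 69.8, 25.7 and 93.6 CPM under DMSO. In all 3 genes SBI-477 2 stood near DMSO 1 and 3, and DMSO 2 near SBI-477 1 and 3. SCD was at 372, 723 and 408 CPM under SBI-477, against 672, 362 and 845 CPM under DMSO. SREBF2 was at 82.7, 133 and 97.3 CPM under SBI-477, against 138, 84.0 and 160.4 CPM under DMSO. FADS2 was at 2.36, 4.03 and 2.70 CPM under SBI-477, against 5.12, 2.04 and 5.68 CPM under DMSO. These 3 genes had the same arrangement of libraries.

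**Figure D5:**
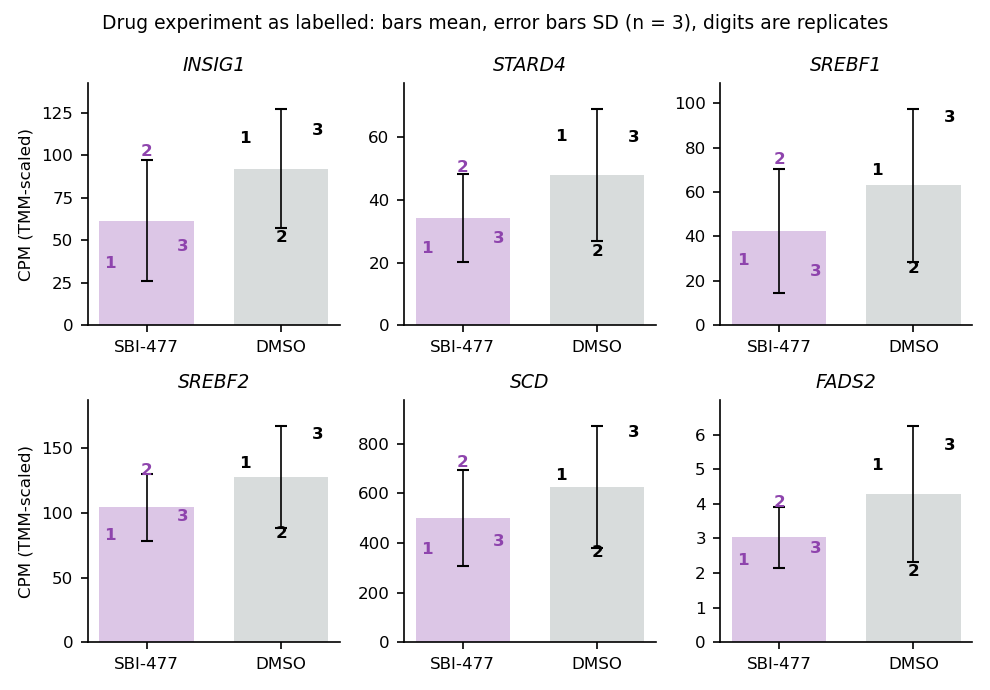
TMM-scaled CPM of 6 members in the drug libraries as labelled; bars are group means, error bars the SD over 3 libraries, and digits the replicate numbers. In each panel SBI-477 2 lies with DMSO 1 and 3, and DMSO 2 with SBI-477 1 and 3.

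Without the libraries labelled DMSO 2 and SBI-477 2, 13 of 34 members were called, where 18.1% of 14232 genes were (9.07% up and 9.02% down). In the sterol branch 7 had fallen and 2 risen. INSIG1 fell by 1.44 ± 0.12, STARD4 fell by 1.205 ± 0.10, SREBF2 by 0.73 ± 0.11 and HMGCS1 by 0.71 ± 0.13 on the log2 scale (edgeR adjusted p 0.000309, 0.000301, 0.00373 and 0.00801). FDFT1, CYP51A1 and SQLE fell by 0.45 ± 0.11, 0.37 ± 0.10 and 0.36 ± 0.11 (edgeR adjusted p 0.0232, 0.0287 and 0.0424). PMVK, which phosphorylates phosphomevalonate, and EBP, a sterol isomerase, rose by 0.65 ± 0.09 and 0.30 ± 0.09 (edgeR adjusted p 0.00273 and 0.0459). In the fatty acid branch 4 had fallen and none risen: SREBF1 by 1.62 ± 0.15, FADS2 by 1.10 ± 0.22, SCD by 0.96 ± 0.12 and the acyl-CoA synthetase gene ACSL3 by 0.57 ± 0.09 (edgeR adjusted p 0.000548, 0.0099, 0.00159 and 0.0039). With 2 libraries a group these p-values rest on few degrees of freedom, and the libraries left out were chosen with their values known.

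In the authors' deposited table the drug columns put 2 sterol members up and 9 down and 5 fatty acid members down, with SREBF1 at -1.58, INSIG1 at -1.27 and STARD4 at -1.16 on the log2 scale; 10.6% of 14656 genes were up and 9.51% down in those columns of the authors' deposited table. For the siRNA groups the authors' deposited table puts 7 sterol members down in siMondoA and 3 up in siMLX. The 7 are HMGCS1, SQLE, IDI1, INSIG1, FDFT1, MSMO1 and TM7SF2, and the 3 are FDPS, STARD4 and ACAT2. Of the 7, edgeR's test with all libraries and no replicate term called only TM7SF2. The authors' siRNA columns were returned with a replicate term. In the fatty acid branch 2 are up (ME1 and MID1IP1) and 2 down (SREBF1 and FASN) in siMondoA. Over all genes with an adjusted p the authors' deposited table had 12.2% up and 11% down in siMondoA, and 5.26% up and 6.48% down in siMLX. The branch medians there were -0.29 and -0.29 in siMondoA, 0.38 and 0.03 in siMLX and -0.27 and -0.21 in SBI-477, sterol branch first.

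CYP51A1 shares 79.4% of its exon bases with another gene on the same strand, and antisense genes share 14.95% of those of HMGCS1, 14.8% of those of IDI1 and 18.6% of those of FDPS, so reads could be lost from or added to them. Around the SREBP system, without both replicate 2 libraries, 3 of 13 genes had risen and INSIG2, the second INSIG protein, had fallen (-0.51 ± 0.12, edgeR adjusted p = 0.0206). In that fit 9.07% of all genes rose and 9.02% fell. Of 13 other sterol and isoprenoid enzymes 2 rose and 1 fell, LBR, a nuclear membrane protein with sterol reductase activity like that of TM7SF2 (-0.36 ± 0.08, edgeR adjusted p = 0.0181).

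The last comparison asked where the effect of SBI-477 differs from that of siMondoA, as an interaction over all 15 libraries. With libraries as labelled 2 of 34 members passed, where 7.67% of 13681 genes did (3.84% up and 3.83% down). TM7SF2, with a fold of 0.04 ± 0.23 under SBI-477 and -1.56 ± 0.36 in siMondoA, differed by 1.62 ± 0.46 (edgeR adjusted p = 0.0435). MID1IP1, with a fold of 0.07 ± 0.14 under SBI-477 and 0.89 ± 0.15 in siMondoA, differed by -0.80 ± 0.21 (edgeR adjusted p = 0.0298). TM7SF2 was at 5.23, 5.57 and 7.48 CPM under SBI-477, against 4.56, 6.74 and 6.47 CPM under DMSO, and MID1IP1 at 75.1, 86.8 and 88.3 CPM under SBI-477, against 91.8, 67.8 and 77.8 CPM under DMSO. In both genes the drug groups overlapped.

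Without both replicate 2 drug libraries 7 members differed between the effects, where 11.5% of 13817 genes did (6.02% up and 5.52% down). TM7SF2 (1.78 ± 0.52, edgeR adjusted p = 0.0435) and MID1IP1 (-0.92 ± 0.22, 0.023) kept their signs. SREBF1, STARD4, SREBF2 and SCD were lower under SBI-477 than after siMondoA relative to their controls (-1.12 ± 0.28, -1.19 ± 0.25, -0.75 ± 0.20 and -0.66 ± 0.19; edgeR adjusted p 0.0262, 0.0142, 0.0312 and 0.0438). PMVK was higher (0.86 ± 0.23, edgeR adjusted p = 0.0313). The 2 effects were measured in separate experiments, the drug libraries being deeper, so experiment and kind of treatment cannot be told apart.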

How the data were processed

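Human PSN-1 cells were profiled by RNA-seq as paired 25-base reads, per the labels' protocols. TopHat2 2.1.0, HTSeq 0.6.1, bcl2fastq 1.8.4 and edgeR (version not stated) are named in the submitters' processing notes, with hg38 and mm10 as builds; the tables hold human symbols. The authors deposited 1 table per experiment, whose headers name a raw count column for each library. The same deposited tables give the authors' own log2 fold change, p-value and adjusted p-value per comparison.

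Counts were tested in R 4.3.3 with edgeR 4.0.16 (filterByExpr, TMM, quasi-likelihood test, Benjamini-Hochberg threshold 0.05) without a replicate term, the 9 siRNA libraries in 1 fit, the 6 drug libraries in another and all 15 for the interaction. SE is the fold divided by the root of F. CPM used TMM factors, and log2 CPM a prior count of 2. A floor is 3 counts per library, for counting error only. DESeq2 1.42.0 was an alternative, and it returned the authors' siRNA columns with a replicate term (median absolute difference 1.74e-07 in siMondoA and 1.53e-07 in siMLX). The deposited tables have 0 entries without a gene name, and 0 columns of samples were left unused. The fit was also run on simulated data with the same spread for every gene and no outlying or exchanged library. That run does not bear on siMLX 2 or on the drug libraries.

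Same-numbered libraries deviated together in siMLX and siControl (correlations 0.27, 0.19 and 0.36). For that comparison blocked values are given where they change a call or move a count. In siMondoA and siControl (0.14, 0.088 and 0.0084) and siMondoA and siMLX (0.53, 0.45 and -0.11) such libraries did not deviate together in every pair. There the blocked counts are given, with the members newly called in siMondoA against siControl. Replicates differed by a chi-square per degree of freedom of 8.37 or more, so none was a duplicate. Values per library are printed for members called in at least 1 comparison and for 8 fixed members; of other lists, up to 4 called genes with the smallest adjusted p, and which of these appear was decided when writing. Some called genes of the other lists are not reported here. The members, lists and settings were chosen with earlier results of these data known. The fits without siMLX 2 for siMondoA, and with siMLX 2 left out together with the block, were added after seeing the data. Promoters come from RefSeq (GRCh38.p14), exon lengths from GENCODE v29. Figures were drawn with matplotlib 3.10.9.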

Additional observations from a re-analysis of the deposited data

Results flagged for a closer look

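The fold of TM7SF2 differed between the treatments: the SBI-477 effect minus the siMondoA effect was 1.62 on the log2 scale in the interaction test over all 15 libraries, and 1.78 without the libraries labelled DMSO 2 and SBI-477 2. The call was lost under 10 of 18 other settings, with edgeR adjusted p between 0.00843 and 0.11 and a difference between 1.34 and 2.01. MID1IP1 differed in the other direction, by -0.80 with libraries as labelled and -0.92 without those 2 libraries. Its call was lost under 8 of 18 other settings, with edgeR adjusted p between 0.00563 and 0.082 and a difference between -0.92 and -0.68.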

How the results depend on the processing

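The branch medians kept their sign in the 3 siRNA comparisons under every setting run, and the folds of the 14 members called in any comparison kept their direction in the comparisons that called them, under every setting run. Counts of calls did not stay level. With the replicate block they were 4 sterol and 5 fatty acid members and 4551 of 13001 genes for siMondoA against siControl, 3 sterol members and 1815 genes for siMLX against siControl, and 14 sterol members and 2606 genes for siMondoA against siMLX. Newly called as lower in siMondoA than in siControl with the block were FDFT1, FDPS, MSMO1, SREBF1 and ACLY (edgeR adjusted p 0.0342, 0.0435, 0.0164, 0.047 and 0.0374). With the 2 compared groups alone the counts were 3 sterol members and 3821 of 12808 genes for siMondoA against siControl, and 2 sterol members and 1164 of 12811 genes for siMLX against siControl. For siMondoA against siMLX they were 0 sterol members, 1 fatty acid member and 706 of 12717 genes. DESeq2 called 2 sterol members and 3939 of 14069 genes for siMondoA against siControl, and 2 sterol members and 1636 of 14069 genes for siMLX against siControl. For the SBI-477 effect minus the siMondoA effect it called 1784 of 13584 genes and 2 fatty acid members. With no filter on low counts siMLX against siControl had 2 sterol members and 1117 of 18818 genes.

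Leaving out siMLX 2 from the siMondoA against siControl fit gave 6 sterol and 5 fatty acid members and 4333 of 13182 genes, and 1676 genes and 2 fatty acid members for the SBI-477 effect minus the siMondoA effect. Without siMLX 2 and with the block there were 6 sterol members and 992 of 13182 genes for siMLX against siControl, and 16 sterol members and 2686 genes for siMondoA against siMLX. Leaving out 1 library at a time, siMondoA against siControl had 1745 to 4333 genes (3532 with all), 1 to 6 sterol and 1 to 5 fatty acid members. For siMLX against siControl it was 254 to 833 genes (1094 with all), 0 to 8 sterol members and a fatty acid median of 0.019 to 0.22. For siMondoA against siMLX it was 670 to 2970 genes (1673 with all), 0 to 14 sterol and 0 to 6 fatty acid members. For the SBI-477 effect minus the siMondoA effect it was 423 to 1680 genes (1049 with all), 0 to 1 sterol and 0 to 2 fatty acid members, and a fatty acid median of -0.13 to 0.26, and without both replicate 2 drug libraries -0.15. Without both replicate 2 drug libraries SBI-477 had 2575 genes, 9 sterol and 4 fatty acid members, against 0 genes as labelled and without any single drug library, and the difference of effects had 1595 genes, 4 sterol and 3 fatty acid members. The cause of these shifts was not tested. Of the values of called members, 143 stayed on their side of the threshold and 85 lost the call. Same-numbered DMSO and SBI-477 libraries correlated at -0.24, -0.56 and -0.45 in their deviations from the group mean. Those means include the libraries labelled DMSO 2 and SBI-477 2, so these values cannot show whether the numbers pair. With the block 0 drug genes were called in edgeR, 113 having an unadjusted p under 0.05. FADS2 and TM7SF2 lay at a few CPM, where counting error is larger.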

Other observations

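In siMondoA, 2 of 10 tested cholesterol export and oxysterol receptor genes rose and 2 fell, where 14.2% of all genes rose and 12.9% fell. ABCA1, the main exporter of cholesterol, was at 340 ± 69.0 CPM in siMondoA and 128 ± 11.8 CPM in siControl (1.41 ± 0.26, edgeR adjusted p = 0.00454). NR1H2, an oxysterol receptor, rose by 0.92 ± 0.16 (0.00397), while LPCAT3, a known target of that receptor family, fell by 0.48 ± 0.14 (0.0312). In siMLX none of the 10 rose and 4 fell, among them ABCA7 (-0.82 ± 0.16, edgeR adjusted p = 0.0141), where 4.69% of all genes fell. Of 18 triglyceride and phospholipid synthesis genes 3 rose and 2 fell in siMondoA, beside the same 14.2% and 12.9% of all genes. DGAT2, the last enzyme of triglyceride synthesis, was at 21.5 ± 1.29 CPM in siMondoA and 8.58 ± 0.824 CPM in siControl, and PLIN2, a lipid droplet coat protein, at 393 ± 269 CPM in siMondoA and 79.9 ± 7.73 CPM in siControl (edgeR adjusted p 0.0102 and 0.0103). PLIN2 reached 699 CPM in siMondoA 2, and without that library its fold was 1.58 ± 0.41, against 2.297 ± 0.510 with it. In siMLX none of the 18 rose and 2 fell, LPIN1 and CDS2, where 3.72% of all genes rose and 4.69% fell. With the replicate block 1 rose and 3 fell, where 6.52% of all genes rose and 7.44% fell. Among 19 other fatty acid synthesis and elongation enzymes 3 rose and 2 fell in siMondoA, where 14.2% of all genes rose and 12.9% fell. ACSL4, which activates arachidonate, was at 1.40 ± 0.21 and SCD5, a second stearoyl-CoA desaturase gene, at -1.01 ± 0.22 (edgeR adjusted p 0.00207 and 0.00879). In siMLX none of the 19 rose and 1 fell, and with the block 1 rose and 1 fell, beside the siMLX shares of all genes just given.

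Over all genes 14.2% rose and 12.9% fell in siMondoA, and 3.72% rose and 4.69% fell in siMLX. Of 19 fatty acid oxidation genes none rose and 4 fell in siMondoA, CPT2 by 0.56 ± 0.14 (edgeR adjusted p = 0.0177) among them, and 1 rose and 3 fell in siMLX, with PPARGC1A at -3.73 ± 0.59 (0.00566). Of 10 tested ChREBP targets outside the members 3 rose and 4 fell in siMondoA, and HBP1 fell in siMLX too, by 1.22 ± 0.17 (edgeR adjusted p = 0.00371), as the 1 called of the 10. With the block 2 of the 10 rose and 3 fell in siMLX, where 6.52% of all genes rose and 7.44% fell. None of these lists held a call in SBI-477 against DMSO as labelled. Without both replicate 2 drug libraries DGAT2 rose by 1.40 ± 0.13 (edgeR adjusted p = 0.000548) and MLXIPL, which encodes ChREBP, fell by 1.95 ± 0.24 (0.00178). There 5 of 19 oxidation genes rose and none fell, 4 of 18 triglyceride genes rose and 3 fell, and 1 of 9 ChREBP targets rose and 5 fell. In that fit 9.07% of all genes rose and 9.02% fell. Of 20 ISR genes 1 rose in siMLX, where 3.72% of all genes did. With the block 7 rose, where 6.52% did. Without siMLX 2 none rose and 1 fell, where 2.59% of all genes rose and 3.68% fell. Of 13 other sterol and isoprenoid enzymes 2 were called in siMLX, where 8.41% of all genes were, and 1 without the siMLX 2 library, where 6.27% were. The 2 were COQ2 up and SOAT1 down (0.52 ± 0.13 and -0.39 ± 0.11, edgeR adjusted p 0.0369 and 0.0497), of which COQ2 was called without siMLX 2.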
